A study of Mus musculus with 16 samples.

Results

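The genes described here encode the subunits of the proteasome, the protease that degrades ubiquitin-tagged proteins. Members were the genes of the deposited table whose symbol begins with Psma, Psmb, Psmc or Psmd followed by a digit, without the interferon-induced Psmb8 and Psmb9, and with at least 1 FPKM (sequenced fragments per unit of transcript length, relative to the total of that library) in at least 4 of the 16 libraries. Of 13982 genes in the table, 38 matched by name and 37 passed the filter on low values. The gene that did not pass was Psmb11, the thymus-specific catalytic subunit, whose highest value was 0.14 FPKM. The members with the fewest libraries at 1 FPKM or more were Psma8, a testis-type alpha subunit, with 9, and Psmc3ip with 11. Psmc3ip carries the name pattern but encodes a recombination cofactor of meiosis, not a proteasome protein. It is kept as a member because the rule takes it, and is counted apart. The other 35 members passed in all 16 libraries.

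The proteasome consists of a barrel-shaped core, the 20S particle, and a cap, the 19S regulatory particle. In the core, outer rings of alpha subunits gate the entrance, and inner rings of beta subunits hold the proteolytic sites, which Psmb5, Psmb6 and Psmb7 carry in most cells. The 19S base unfolds substrates with a ring of ATPases (Psmc genes), while its lid and non-ATPase subunits (Psmd genes) bind ubiquitin chains and remove them. Inflammatory cytokines exchange the constitutive catalytic subunits for Psmb8, Psmb9 and Psmb10, which gives the immunoproteasome, a form known for producing peptides that are presented on MHC class I molecules. By these textbook roles, 16 members belonged to the core, 17 to the regulatory particle and 3 to the chaperones that assemble the 19S base (Psmd5, Psmd9 and Psmd10).

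RNA was sequenced from cells that had been stained for CD45 and CD11b and sorted as microglia from the cortex of C57BL/6 mice, with 4 libraries in each of 4 groups. Sham mice, which the labels also call untreated, had no occlusion. The other groups had a stroke by MCAO, occlusion of the middle cerebral artery, alone or followed by tail vein injections of 150 µg exosomes, repeated every 3 days starting at surgery. Exosomes came from plasma of Apoe knockout mice, an atherosclerosis model, kept on a western diet (12 weeks) or a normal diet. The injected groups carry the codes MCAO+AS-exos and MCAO+Ctrl-exos, and no label ties a code to a donor diet. Age, sex, the time from surgery to sorting and whether each library came from its own mouse are not given in the sources used here, so p-values measure the spread between these libraries, which may be technical. Summed values ran from 758283 to 983648 FPKM per library, with 8813 to 10003 genes at 1 FPKM or more. The tables give no read counts, so sequencing depth is unknown. No batch or date is given in the labels.

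The marker genes of the sorted cells differed strongly between Sham and stroke. The summed level of 10 resting microglia genes, among them P2ry12 and Tmem119, was 20890 to 22855 FPKM in Sham and 981 to 1800 FPKM in the 12 stroke libraries. For 9 monocyte genes the range was 6.68 to 97.2 FPKM in Sham and 1521 to 5331 FPKM after stroke. Likewise, for 6 genes of border macrophages it was 2.75 to 57.4 FPKM and 1668 to 5334 FPKM. Of 10 neutrophil genes, 7 were in the table. Their sums were 76.7 to 144 FPKM in Sham and 1619 to 9685 FPKM after stroke. Retnlg and Ly6g were at 0 in every Sham library and Ly6g at 0 in every MCAO library. By group means, S100a8 and S100a9 held most of the stroke sums, at 3544 and 1078 FPKM in MCAO. Csf3r held most of the Sham sum and went the other way. Its means were 94.4 FPKM in Sham, 76.2 in MCAO, 60.4 in MCAO+Ctrl-exos and 65.4 in MCAO+AS-exos. In such bulk samples a change in the mix of cells and a change in RNA per cell cannot be told apart, and this holds for each comparison with Sham below. The part of the marker shift in the proteasome values was not tested.

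Single libraries stood apart for the members. Replicate 4 of MCAO+AS-exos was the lowest of its group for 25 of the 37 members (67.6%), against 31.8% of all 10846 genes tested. Replicate 1 of MCAO+Ctrl-exos and replicate 1 of Sham were each the lowest of their group for 17 members (45.9%), against 21.1% and 31.7% of all genes tested. Monocyte markers moved with the first of these: their sum was 3805 to 5331 FPKM in MCAO+AS-exos replicates 1 to 3 and 1723 FPKM in replicate 4. The neutrophil sum did too, at 5827 to 7116 FPKM in replicates 1 to 3 and 3359 FPKM in replicate 4. By group means, S100a8 and S100a9 held most of that sum. The monocyte sums rested largely on Chil3, at 2948 to 4235 FPKM in replicates 1 to 3 and 652 FPKM in replicate 4. Without Chil3 they were 681 to 1096 FPKM and 1072 FPKM. Replicates 1 to 3 of MCAO+AS-exos were also much closer to each other than other libraries: over all genes tested they correlated at r = 0.979 to 0.985, against 0.898 to 0.937 for the other 15 pairs within a stroke group. Replicate 4 correlated with them at 0.905 to 0.921 and with MCAO libraries at 0.915 to 0.937. No label says whether the 3 libraries share a source, and without counts they cannot be set against sampling noise. If they do, p-values of MCAO+AS-exos are too small, so its counts are also given with the 3 averaged and counted once, a choice made after the values were seen.

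Core members mostly stood above cap members in these values, which are scaled by transcript length. The 14 constitutive core genes (Psma1 to Psma7 and Psmb1 to Psmb7) had mean levels over 16 libraries between 212 FPKM (Psma5) and 494 FPKM (Psmb3). The 17 members of the 19S particle lay between 27.8 FPKM (Psmd3) and 250 FPKM (Psmd8). Sem1, a 19S lid gene outside the name rule, averaged 606 FPKM in Sham, 1568 in MCAO, 2702 in MCAO+Ctrl-exos and 1462 in MCAO+AS-exos. These means were above that of every core gene in the same group. Together the members made up 0.676% to 0.700% of all FPKM in Sham, 0.781% to 0.900% in MCAO, 0.835% to 0.977% in MCAO+Ctrl-exos and 0.836% to 1.09% in MCAO+AS-exos. All 12 stroke libraries were above all 4 Sham libraries in this share.

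**Figure D1:**
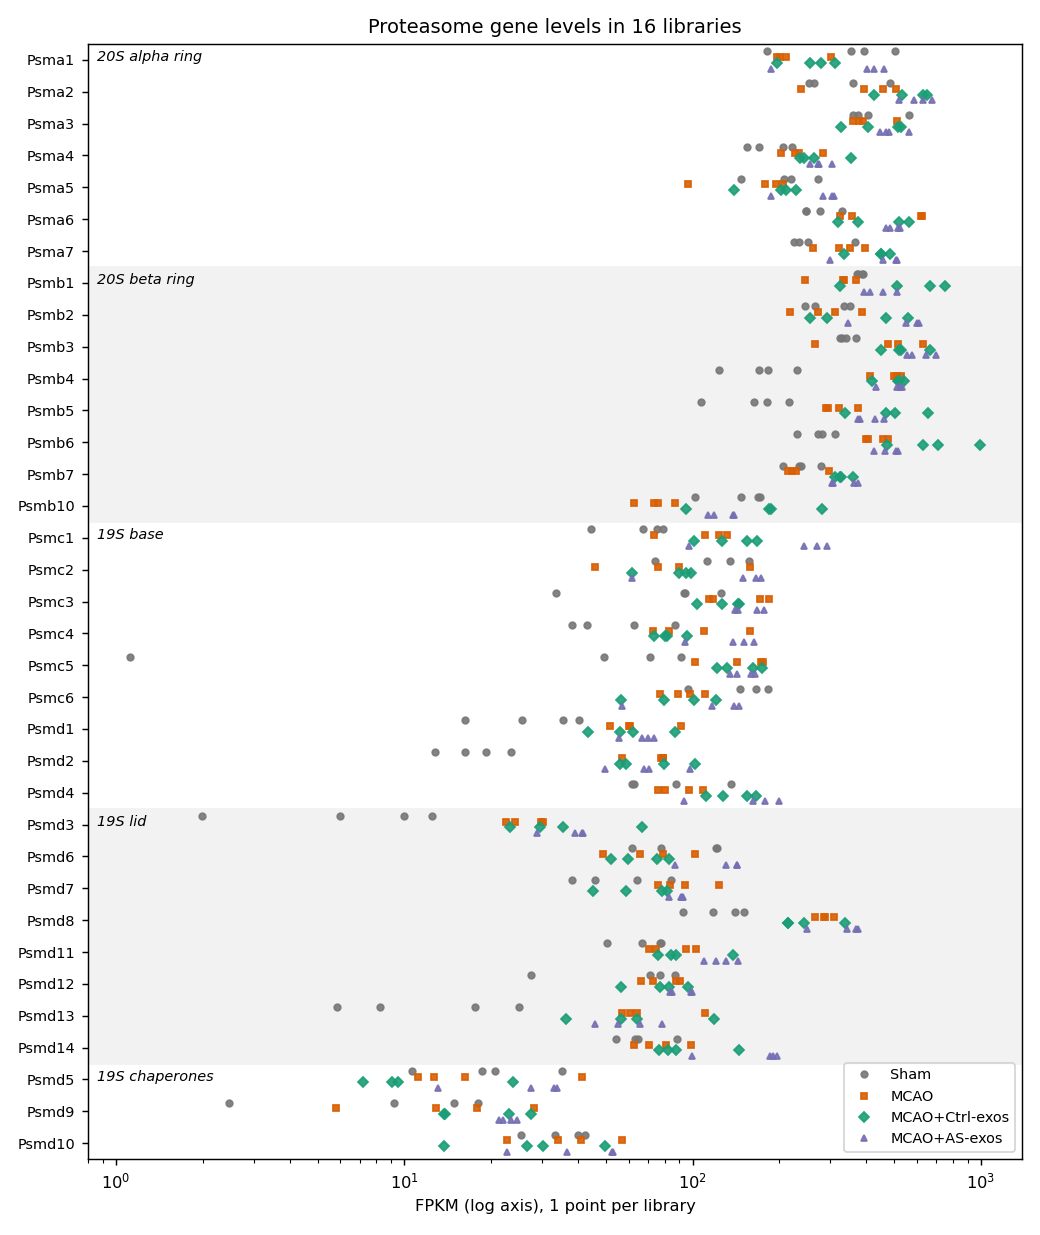
Levels of 35 proteasome genes (Psma8 and Psmc3ip, both low, are left out), 1 point per library and 4 per group, in FPKM on a log axis, ordered by role. Core genes sit mostly above 100 FPKM, and grey Sham points lie to the left of the stroke points for genes such as Psmb4, Psmd2, Psmd3 and Psmd13.

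Compared with Sham, part of the proteasome genes were higher in each stroke group, and the rest mostly did not pass the test. In limma fits across all genes with a Benjamini-Hochberg adjusted p below 0.05, 13 of the 37 members were higher and 2 lower in MCAO. That is 40.5% called, against 39.2% of all genes tested (24.5% higher and 14.8% lower), so the share itself was near the background, while 35.1% of members were higher. In MCAO+Ctrl-exos 17 members rose and none fell, 45.9% against a background of 38.7% in either direction and 22.1% higher. In MCAO+AS-exos 23 members rose and none fell, 62.2% against 39.8% in either direction and 20.7% higher. At an unadjusted p below 0.05, 2 members were lower in MCAO+Ctrl-exos and 0 in MCAO+AS-exos, beside 20.2% and 23.1% of all genes. The median log2 fold change of the members was 0.33 in MCAO, 0.54 in MCAO+Ctrl-exos and 0.81 in MCAO+AS-exos, beside 0.25, 0.12 and 0.03 for all genes tested. All 3 comparisons share the Sham libraries, so they are not independent of each other. Scaling mattered: after quantile normalization the members' medians were 0.11, 0.23 and 0.45, beside -0.03, -0.05 and -0.07 for all genes, and the calls were 9 higher and 5 lower, 10 higher and 3 lower, and 13 higher and none lower. These shares (37.8%, 35.1% and 35.1%) were below those of all genes under that scaling (39.2%, 38.6% and 40.6%), while 19.2%, 19% and 18.6% of all genes were higher. Without Sham replicate 1 the calls were 11, 11 and 18 (29.7%, 29.7% and 48.6%), beside 35.6%, 34.4% and 35.3% of all genes. With MCAO+AS-exos replicates 1 to 3 counted once, that group had 11 calls, all higher (29.7%, beside 24.6% of all genes in either direction and 13.9% higher).

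The members that rose in all 3 comparisons were 10: Psma6, Psmb4, Psmb5 and Psmb6 of the core and Psmc5, Psmd1, Psmd2, Psmd3, Psmd8 and Psmd13 of the cap. They made up 27% of members, beside 13.9% of all genes tested. A further 9 rose in 2 comparisons, 5 in 1 and 13 in none, 24.3%, 13.5% and 35.1% of members beside 7.96%, 9.49% and 68.6% of all genes. Calls that held in all 11 alternative settings and all 8 fits without 1 library numbered 8 of 15 in MCAO, 8 of 17 in MCAO+Ctrl-exos and 10 of 23 in MCAO+AS-exos. Psmb4, Psmb5, Psmd1, Psmd2, Psmd3, Psmd8 and Psmd13 held in each of these comparisons. For 9 members (24.3%) each of the 12 stroke libraries exceeded the highest Sham library, against 11.8% of all genes tested. No member had all 12 below the lowest Sham library, which 935 of all 10846 genes did.

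**Figure D2:**
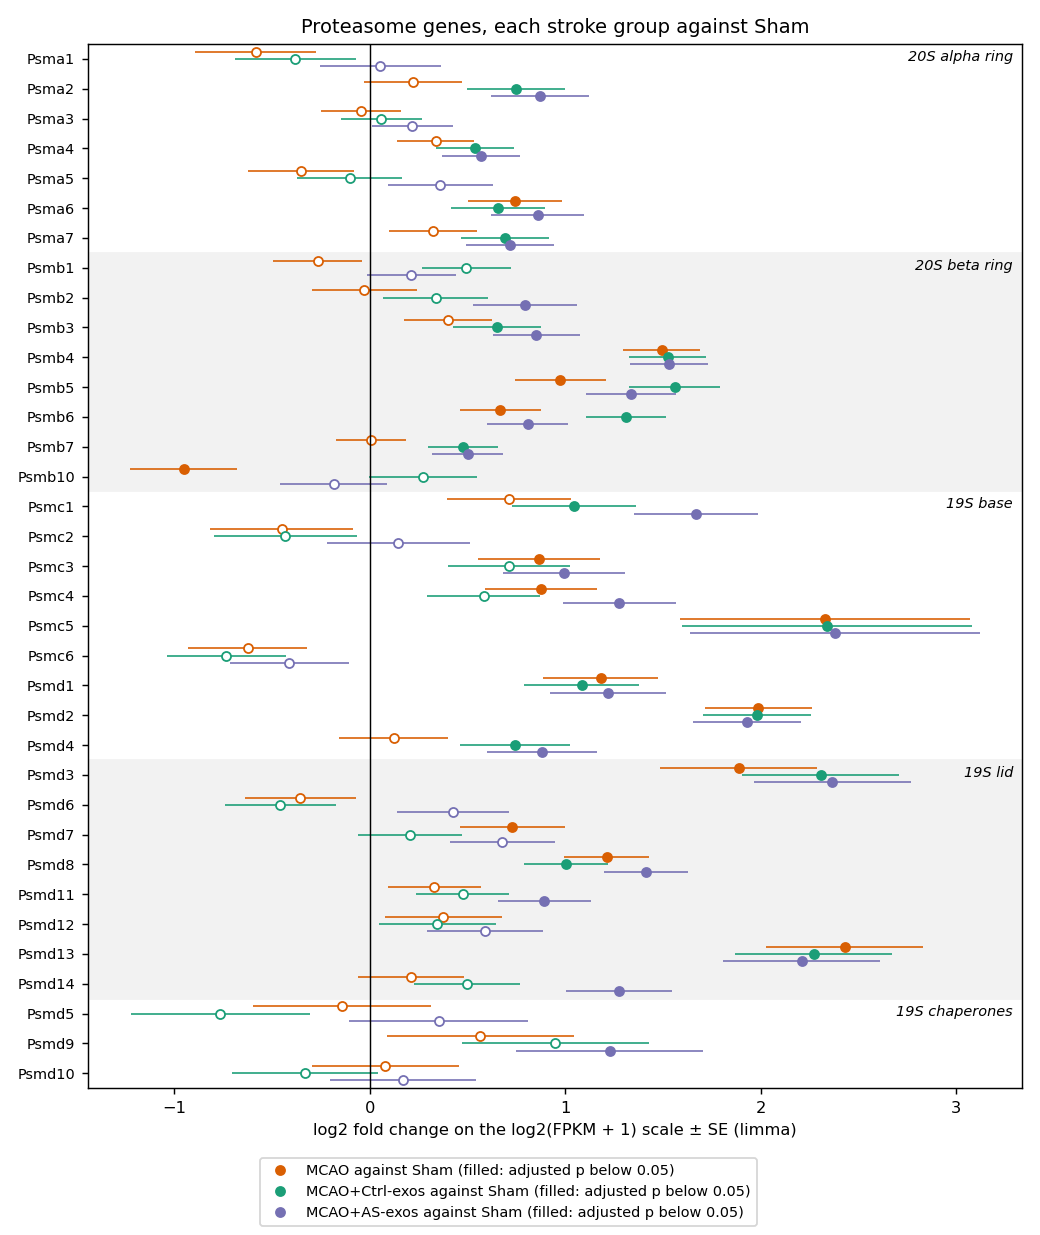
Log2 fold change with its SE for 35 members in each stroke group against Sham, ordered by role; filled points have an adjusted p below 0.05, and each estimate comes from 4 libraries per group. Points of Psmb4, Psmd2, Psmd3 and Psmd13 lie near or beyond 1.5 in all 3 comparisons, while Psma1, Psma3, Psma5, Psmc2 and Psmc6 have only open points.

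Among the alpha subunits, which form the gate of the core, changes were small. Psma6 rose by 0.74 ± 0.24 on the log2 scale in MCAO (adjusted p = 0.0188), 0.66 ± 0.24 in MCAO+Ctrl-exos and 0.86 ± 0.24 in MCAO+AS-exos. Its Sham libraries held 277.47, 331.15, 248.44 and 247.3 FPKM, and its MCAO libraries 356.44, 324.7, 622.88 and 620.13 FPKM. Replicates 3 and 4 of MCAO were high, replicate 2 lay within the Sham range, and the call in MCAO was lost without either of the high replicates. The MCAO+Ctrl-exos call was lost in 4 of 11 alternative settings and 5 of 8 fits without 1 library. Psma2, the most abundant alpha gene by the mean over 16 libraries, averaged 341 ± 107 FPKM in Sham, 399 ± 117 in MCAO, 560 ± 101 in MCAO+Ctrl-exos and 604 ± 67.5 in MCAO+AS-exos (mean ± SD, n = 4 libraries each). It passed the test in the exosome groups only, with adjusted p = 0.0238 and 0.00966, against 0.504 in MCAO. These calls were lost in 3 and 2 of 11 alternative settings, and the first in 4 of 8 fits without 1 library. Psma4 and Psma7 also rose in both exosome groups, by 0.54 to 0.72 on the log2 scale. Of 11 alternative settings and 8 fits without 1 library, the Psma4 calls were lost in 6 and 4 (MCAO+Ctrl-exos) and in 4 and 5 (MCAO+AS-exos), and the Psma7 calls in 3 and 3 and in 3 and 2. Psma1, Psma3 and Psma5 passed no test, with log2 fold changes from -0.58 (Psma1 in MCAO, adjusted p = 0.144) to 0.36 (Psma5 in MCAO+AS-exos). Psma1 fell in MCAO after quantile normalization (-0.88, adjusted p = 0.0300) and, in the deposited scaling, without Sham replicate 4 (-0.88, adjusted p = 0.0207). It also fell in MCAO+Ctrl-exos after quantile normalization (-0.83, adjusted p = 0.039). The main fit gave none of these calls. Psma3 turned with the setting: it was lower in MCAO+Ctrl-exos after quantile normalization (-0.52, adjusted p = 0.0350) and higher there with length and GC trends removed (0.69, adjusted p = 0.00265).

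Psma8, which replaces an alpha subunit in spermatocytes, was barely expressed. Its values were 10.32, 11.73, 0.04 and 2.38 FPKM in Sham, while MCAO held 1.21, 0, 0.03 and 0 FPKM. Sham replicates 1 and 2 carried most of the signal, and the groups overlapped. The call in MCAO (-1.95 ± 0.65, adjusted p = 0.0225) was lost in 4 of 8 fits that each left out 1 library, and the gene passed the filter on low values mainly through Sham and MCAO+AS-exos.

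Psmb4, a non-catalytic beta subunit, rose by nearly the same amount in all 3 comparisons. Sham libraries had 169.78, 229.97, 123.36 and 182.9 FPKM. After stroke the values were 514.06, 500.48, 529.45 and 412.84 FPKM in MCAO, 540.56, 515.33, 420.65 and 522.04 FPKM in MCAO+Ctrl-exos, and 510.96, 526.5, 434.4 and 533.03 FPKM in MCAO+AS-exos. Every stroke library was above every Sham library, and the stroke groups covered the same range. The log2 fold changes were 1.49 ± 0.20, 1.52 ± 0.20 and 1.53 ± 0.20, with adjusted p = 5.71e-06, 4.25e-06 and 4.14e-06. Other beta genes follow. Psmb3, the most abundant member by the mean over 16 libraries, rose in the exosome groups by 0.65 ± 0.22 and 0.85 ± 0.22, and Psmb2 rose in MCAO+AS-exos by 0.79 ± 0.27 (adjusted p = 0.0237). The Psmb3 call in MCAO+Ctrl-exos was lost in 4 of 11 alternative settings and 4 of 8 fits without 1 library, that in MCAO+AS-exos in 3 and 0, and the Psmb2 call in 4 and 5. Psmb1 was the steadiest gene in Sham, at 372 to 390 FPKM, and passed no test, although its MCAO libraries (245 to 370 FPKM) were all lower than Sham and its MCAO+AS-exos libraries (394 to 512 FPKM) all higher. After quantile normalization it fell in MCAO (-0.59, adjusted p = 0.0167), and with length and GC trends removed it rose in MCAO+Ctrl-exos (0.92, adjusted p = 0.00195).

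Of the 3 constitutive catalytic genes, Psmb5 and Psmb6 rose in each stroke group, and Psmb7 in the exosome groups only. Psmb5, which carries the chymotrypsin-like site, stood at 106.7, 181.12, 163.39 and 216.88 FPKM in Sham. It reached 321.58, 295.26, 289.82 and 375.46 FPKM in MCAO, 338.97, 469.72, 504.25 and 653.85 FPKM in MCAO+Ctrl-exos, and 374.77, 460.75, 380.23 and 430.2 FPKM in MCAO+AS-exos. No stroke library reached down to the Sham range, and the log2 fold changes were 0.97 ± 0.23, 1.56 ± 0.23 and 1.34 ± 0.23 (adjusted p = 0.0024, 2.27e-05 and 0.000134). Psmb6, of the caspase-like site, went from 229.52, 312.85, 272.55 and 281.65 FPKM in Sham to 457.57, 398.69, 406.32 and 476.63 FPKM in MCAO. In MCAO+Ctrl-exos it read 474.31, 709.36, 628.82 and 993.3 FPKM, and in MCAO+AS-exos 464.22, 516.7, 426.19 and 508.9 FPKM. All stroke libraries were again above Sham, by 0.67 ± 0.21, 1.31 ± 0.21 and 0.81 ± 0.21 on the log2 scale (adjusted p = 0.0147, 4.33e-05 and 0.0042). The Psmb6 calls in MCAO and MCAO+AS-exos were lost after quantile normalization and with length and GC trends removed. The call in MCAO+Ctrl-exos held in every setting. Psmb7, of the trypsin-like site, did not pass the test in MCAO (0.01 ± 0.18, adjusted p = 0.981). Sham libraries had 237.59, 278.25, 234.57 and 205.3 FPKM and MCAO libraries 221.69, 298.51, 228.73 and 214.11 FPKM. The gene stood at 325.41, 312.86, 326.93 and 360.44 FPKM in MCAO+Ctrl-exos, and 375.11, 362.85, 305.73 and 307.37 FPKM in MCAO+AS-exos. Both exosome groups lay above all Sham and all MCAO libraries. Against Sham the adjusted p was 0.0434 and 0.0343. These calls were lost in 6 of 11 alternative settings each, and in 7 and 5 of the 8 fits without 1 library. Against MCAO the adjusted p was 0.345 and 0.0986.

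Psmb10, the inducible counterpart of Psmb7, went the other way in MCAO. Sham libraries held 101.67, 146.88, 169.08 and 171.59 FPKM, and MCAO libraries 86.6, 62.55, 76 and 73.34 FPKM, all below Sham. The fall of 0.95 ± 0.27 on the log2 scale (adjusted p = 0.00954) stayed past the threshold in all 11 alternative settings and all 8 fits without 1 library. In MCAO+Ctrl-exos the values spread from 94.99 through 184.01 and 187.59 to 282.28 FPKM, and MCAO+AS-exos held 138.22, 139.77, 113.28 and 118.59 FPKM. Against Sham neither passed the test (0.27 ± 0.27 and -0.18 ± 0.27, adjusted p = 0.4584 and 0.6265). With length and GC trends removed, MCAO+AS-exos reached a lower call against Sham (-0.74, adjusted p = 0.0285). Both exosome groups were higher than MCAO with no overlap. The differences, 1.22 ± 0.27 and 0.77 ± 0.27, did not pass the test (adjusted p = 0.114 and 0.0898). Without replicate 1 of MCAO+Ctrl-exos, its lowest library, the first became 1.51 with adjusted p = 0.00937.

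Each inducible gene was also set against its constitutive partner within a library. The Psmb8 to Psmb5 ratio was 0.991 to 1.38 in Sham, 0.544 to 0.952 in MCAO, 0.447 to 0.870 in MCAO+Ctrl-exos and 0.493 to 1.06 in MCAO+AS-exos. Only MCAO+AS-exos replicate 1 reached into the Sham range. For Psmb9 over Psmb6 the ranges were 0.186 to 0.549, 0.123 to 0.272, 0.163 to 0.260 and 0.229 to 0.295, and they overlapped. For Psmb10 over Psmb7, MCAO (0.210 to 0.391) and MCAO+AS-exos (0.368 to 0.386) lay below Sham (0.428 to 0.836), and MCAO+Ctrl-exos ran from 0.292 to 0.783. Psmb8 itself rose in MCAO+Ctrl-exos (0.82 ± 0.23, adjusted p = 0.00787) and MCAO+AS-exos (0.68 ± 0.23, adjusted p = 0.0237), where Psmb5 changed by 1.56 and 1.34. The first of these Psmb8 calls was lost after quantile normalization (0.49, adjusted p = 0.102), the second also with equal totals (0.54, adjusted p = 0.0689). Psmb9 passed no test. The ratios are a description and were not tested.

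**Figure D3:**
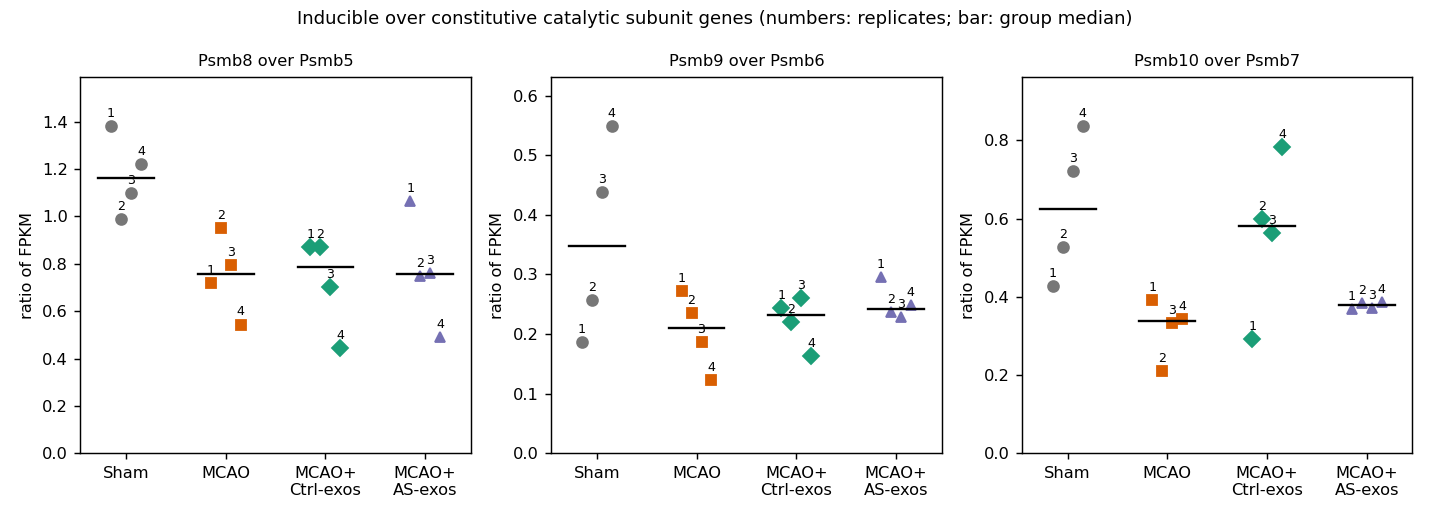
Ratio of FPKM of each inducible catalytic gene to its constitutive partner, 1 point per library with its replicate number, 4 libraries per group, bars at group medians. The Psmb8 to Psmb5 ratio is near or above 1 in Sham and mostly below 1 after stroke, and the 4 MCAO+AS-exos points for Psmb10 over Psmb7 lie between 0.368 and 0.386.

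The cap members included the largest fold changes of the set, mostly at lower levels than the core. Psmd2, the scaffold of the base that docks ubiquitin receptors, had 19.28, 16.26, 12.78 and 23.38 FPKM in Sham. It had 77.46, 57.02, 78.89 and 79.07 FPKM in MCAO, 102.1, 58.83, 56.05 and 79.87 FPKM in MCAO+Ctrl-exos, and 49.7, 68.01, 97.64 and 70.69 FPKM in MCAO+AS-exos. The lowest stroke library was above the highest Sham library by a wide margin, and the log2 fold changes of 1.99, 1.98 and 1.93 (SE 0.28 each) had adjusted p = 1.01e-05, 1.02e-05 and 1.43e-05. Psmd1, the other large scaffold of the base, rose by 1.18 ± 0.29, 1.08 ± 0.29 and 1.22 ± 0.29. Psmd4, a ubiquitin receptor, averaged 86.8 ± 34.6 FPKM in Sham and 90.5 ± 15.2 in MCAO, and rose in the exosome groups to 140 ± 24.8 and 158 ± 45.5 (n = 4 each; adjusted p = 0.0422 and 0.0175). The first of these calls was lost in 8 of 11 alternative settings and 6 of 8 fits without 1 library, and the second in 3 and 4.

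The ATPases did not act as one. Psmc5 gave 1.12, 49.22, 91.3 and 71.03 FPKM in Sham. After stroke it gave 175.75, 101.6, 142.52 and 172.4 FPKM in MCAO, 132.13, 173.68, 121.96 and 161.5 FPKM in MCAO+Ctrl-exos, and 142.44, 160.05, 164.77 and 134.82 FPKM in MCAO+AS-exos. Sham replicate 1 was nearly empty for this gene, yet the other 3 Sham libraries were also below all 12 stroke libraries. The fitted changes of 2.33, 2.34 and 2.38 (SE 0.74 each; adjusted p = 0.0175, 0.0171 and 0.0154) depended in size on that library. Without it they were 1.07, 1.08 and 1.12, with adjusted p = 0.00276, 0.00254 and 0.00197. All 3 Psmc5 calls were lost when only the 8 libraries compared were fitted. The MCAO+AS-exos call was also lost with replicates 1 to 3 of that group counted once. Psmc1 rose in MCAO+Ctrl-exos (1.04 ± 0.32, adjusted p = 0.0134) and MCAO+AS-exos (1.67 ± 0.32, adjusted p = 0.000344). Its levels were 66.5 ± 15.5 FPKM in Sham, 110 ± 25.7 in MCAO, 137 ± 29.8 in MCAO+Ctrl-exos and 226 ± 88.1 in MCAO+AS-exos (mean ± SD, n = 4 each). Psmc3 and Psmc4 rose in MCAO and MCAO+AS-exos, by 0.87 to 1.28 on the log2 scale. In MCAO these calls were lost in 3 (Psmc3) and 4 (Psmc4) of the 8 fits without 1 library. Sham replicate 1 moved Psmc3 most: without it the changes were 0.47 in MCAO and 0.59 in MCAO+AS-exos (adjusted p = 0.129 and 0.0560). Psmc2 and Psmc6 passed no test, with log2 fold changes of -0.73 to 0.15. Psmc6 reached a lower call in MCAO and MCAO+Ctrl-exos after quantile normalization (-0.79 and -0.93).

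Among the lid members, Psmd13, Psmd3 and Psmd8, all structural subunits, changed most. Psmd13 had 5.84, 8.27, 24.95 and 17.64 FPKM in Sham. After stroke the values were 110.21, 64.22, 57.04 and 60.53 FPKM in MCAO, 118.42, 56.5, 36.26 and 64.22 FPKM in MCAO+Ctrl-exos, and 45.74, 55.35, 65.93 and 78.34 FPKM in MCAO+AS-exos. No stroke library overlapped Sham, and the changes were 2.43, 2.27 and 2.21 on the log2 scale (SE 0.40 each; adjusted p = 8.02e-05, 0.000156 and 0.000222). Psmd3, the least abundant 19S gene by the mean over 16 libraries, stood at 1.99, 5.98, 12.44 and 10 FPKM in Sham and at 22.47 to 66.9 FPKM after stroke, again with no overlap, and rose by 1.89 ± 0.40, 2.31 ± 0.40 and 2.37 ± 0.40. Psmd8, the most abundant 19S member by that mean, held 92.65, 150.73, 117.41 and 140.52 FPKM in Sham. Its stroke libraries ran from 213.66 to 373.97 FPKM, all higher, with fold changes of 2.31, 2.01 and 2.67 on the log2(FPKM + 1) scale taken back to linear (adjusted p = 0.000171, 0.000999 and 3.17e-05). Psmd11 rose in MCAO+AS-exos only by the test (0.89 ± 0.24, adjusted p = 0.00554), and Psmd7 in MCAO only (0.73 ± 0.27, adjusted p = 0.0374, against 0.0509 in MCAO+AS-exos). The Psmd11 call was lost with MCAO+AS-exos replicates 1 to 3 counted once, and the Psmd7 call in 4 of 8 fits without 1 library. Differences between the stroke groups were not past the threshold for either gene. Psmd6 and Psmd12 passed no test.

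Psmd14, the deubiquitinase of the lid that cuts ubiquitin chains from substrates, differed between the stroke groups. Its values were 54.46, 63.1, 64.7 and 88.4 FPKM in Sham, against 81.04, 99.14, 62.74 and 70.74 FPKM in MCAO. Libraries of MCAO+Ctrl-exos held 76.28, 87.87, 144.8 and 82.06 FPKM. In MCAO+AS-exos they were 186.32, 190.32, 196.13 and 99.95 FPKM. Replicates 1 to 3 of that group were above every other library, and replicate 4 was just above the highest MCAO library. Against Sham the rise was 1.27 ± 0.27 (adjusted p = 0.000975). Against MCAO it was 1.06 ± 0.27 (adjusted p = 0.0345), the only call of a member between stroke groups. That call was lost in 7 of 8 fits without 1 library, when only the 8 libraries compared were fitted, and when trends in transcript length and GC content were removed. It was also lost with MCAO+AS-exos replicates 1 to 3 counted once, and held without replicate 4. Against MCAO+Ctrl-exos the difference was 0.78 ± 0.27 (adjusted p = 0.127).

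The 19S chaperones, which help to assemble the base and are not part of the finished particle, were low. Psmd5 averaged 12.4 to 26.9 FPKM, Psmd9 11.2 to 22.9 FPKM and Psmd10 30.1 to 41.3 FPKM by group. Psmd9 passed the test in MCAO+AS-exos (1.23 ± 0.48, adjusted p = 0.0483), a call lost in 9 of 11 alternative settings, and 0.71 (adjusted p = 0.198) without Sham replicate 1. Psmc3ip varied from 0 to 15.72 FPKM in Sham and from 0 to 15.68 FPKM in MCAO+Ctrl-exos, and passed no test.

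Promoter sequences are shown for 3 members whose changes the text turns on: Psmb4, which rose alike in all stroke groups, Psmb5, whose window holds the antioxidant response element letters bound by NRF1 and NRF2, known regulators of proteasome genes, and Psmd14, the member called between stroke groups. Each is the RefSeq window (GRCm38.p6) from 250 bases before to 50 bases after the annotated start, 300 bases, read 5′ to 3′ on the gene's strand. Capitals mark matches on either strand to TGACNNNGC (antioxidant response element), CCAAT (bound by NF-Y) or GGGCGG (bound by Sp factors). The Psmb4 window, chr3:94886909-94887208 on the minus strand, holds none of these letters. The Psmb5 window, chr14:54617946-54618245 on the minus strand, holds TGACNNNGC at bases 204 to 212. The Psmd14 window, chr2:61711444-61711743 on the plus strand, holds 3 CCAAT matches, of which a pair overlaps at bases 255 to 262, and 3 GGGCGG matches.
Psmb4: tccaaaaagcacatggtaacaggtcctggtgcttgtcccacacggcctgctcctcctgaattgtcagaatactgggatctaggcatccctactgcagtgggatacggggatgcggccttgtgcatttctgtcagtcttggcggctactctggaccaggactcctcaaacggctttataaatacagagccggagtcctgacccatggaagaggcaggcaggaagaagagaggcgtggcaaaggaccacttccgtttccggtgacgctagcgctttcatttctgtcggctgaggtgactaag
Psmb5: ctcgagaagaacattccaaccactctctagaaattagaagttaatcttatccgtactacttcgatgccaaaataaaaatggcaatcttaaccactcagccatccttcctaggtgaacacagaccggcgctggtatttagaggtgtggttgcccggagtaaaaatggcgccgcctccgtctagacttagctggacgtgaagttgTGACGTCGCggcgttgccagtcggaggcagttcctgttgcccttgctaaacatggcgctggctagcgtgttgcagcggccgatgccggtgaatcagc
Psmd14: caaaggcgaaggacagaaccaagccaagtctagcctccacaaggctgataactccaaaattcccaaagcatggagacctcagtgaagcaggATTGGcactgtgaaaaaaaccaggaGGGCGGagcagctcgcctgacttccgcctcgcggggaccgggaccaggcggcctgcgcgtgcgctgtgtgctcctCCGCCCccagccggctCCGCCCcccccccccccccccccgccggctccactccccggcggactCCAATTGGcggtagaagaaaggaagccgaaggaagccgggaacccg

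A RefSeq promoter was found for 30 of the 37 members, in 32 windows. The TGACNNNGC letters stood in 5 members (Psmb5, Psmb6, Psmc6, Psmd9 and Psmd12), 15.6% of the members' windows against 12.4% of all promoters of the same length and 14.4% of those of tested genes. CCAAT stood in 37.5% of windows, against 37.4% of all and 37.8% of tested genes' promoters. GGGCGG stood in 56.3%, against 35.7% and 61.7%. Of the 5 genes with the first motif, Psmb5 and Psmb6 rose in all 3 comparisons with Sham, while Psmc6 and Psmd12 passed no test. A match describes letters in the window only.

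Medians of core and cap genes were also compared by library. The median of the 14 constitutive core genes ran from 247 to 296 FPKM in Sham, with MCAO at 292 to 373 FPKM. For MCAO+Ctrl-exos it was 331 FPKM in replicate 1 and 460 to 528 FPKM in the others, and in MCAO+AS-exos 412 to 509 FPKM. The median of the 17 cap genes was 71.2 to 75.1 FPKM in 3 Sham libraries and 44.4 FPKM in replicate 1, then 73.5 to 97.9 FPKM in MCAO and 77.4 to 95.5 FPKM in MCAO+Ctrl-exos. In MCAO+AS-exos it was 138, 142 and 145 FPKM in replicates 1 to 3 and 86.9 FPKM in replicate 4. Thus the cap median of MCAO+Ctrl-exos lay within the MCAO range, while that of 3 MCAO+AS-exos libraries lay above every other library. The ratio of core to cap medians was 3.29 to 6.19 in Sham, 3.26 to 5.07 in MCAO, 5.94 to 6.44 in MCAO+Ctrl-exos replicates 2 to 4 and 3.47 in replicate 1, and 2.97 to 4.74 in MCAO+AS-exos, and the groups overlapped. These medians are a description and carry no p. They were not scaled to equal totals. The total was 784006 FPKM in MCAO+Ctrl-exos replicate 1, and 970623, 936101 and 983648 FPKM in replicates 2 to 4, beside 759311 to 840856 FPKM in MCAO. The part of the totals in the medians was not tested.

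**Figure D4:**
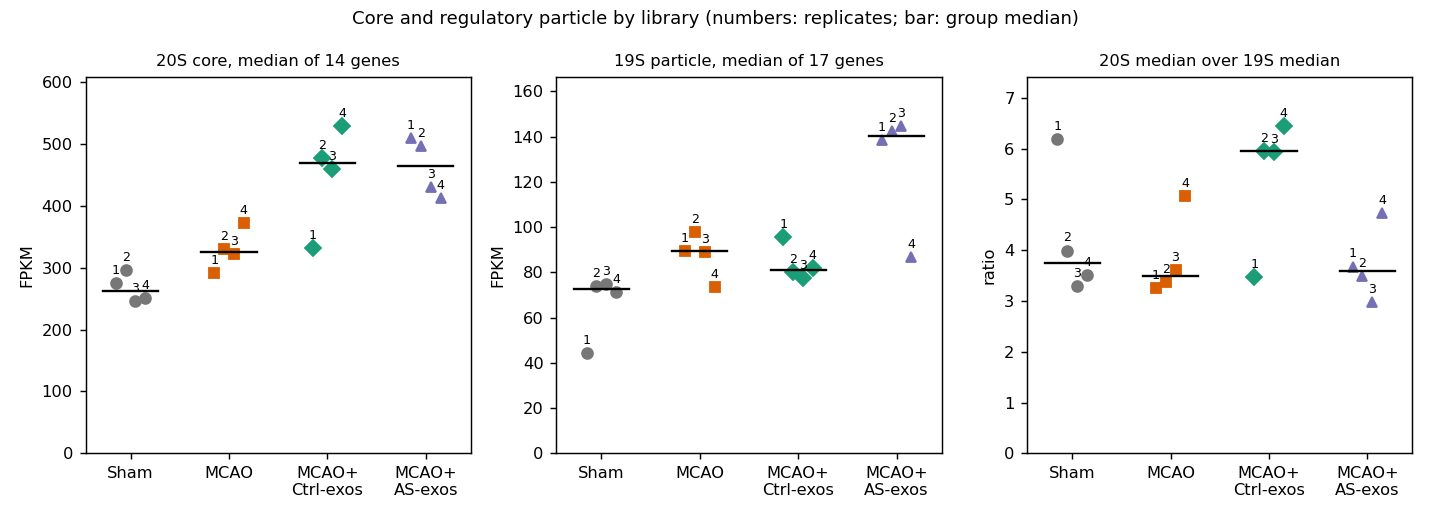
Median FPKM of 14 core genes, median FPKM of 17 cap genes and the ratio of both, 1 point per library with its replicate number, 4 libraries per group, bars at group medians. The medians are not scaled to equal library totals. MCAO+Ctrl-exos replicates 2 to 4 are high for the core (460 to 528 FPKM) and MCAO+AS-exos replicates 1 to 3 for both core and cap (138 to 145 FPKM for the cap).

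Between the stroke groups hardly any member passed the test. No member was called between MCAO+Ctrl-exos and MCAO by limma, against 0.0738% of all genes tested, and 6 members had an unadjusted p below 0.05, all higher, beside 10.9% of all genes in either direction and 4.51% higher. The fit without a variance trend also called none. The members' median log2 fold change was 0.15 beside -0.14 for all genes, and -0.06 beside -0.31 when all libraries were scaled to equal totals. By particle, in the deposited scaling, 15 of 16 core genes had positive values (median 0.37) and 7 of 17 cap genes (median -0.03). Of all 10846 genes tested, 4206 had positive values. Psmb10, Psmb7 and Psmd4 were higher in all 4 MCAO+Ctrl-exos libraries than in MCAO with no overlap, 3 of 37 against 1.99% of all genes. Without replicate 1 of MCAO+Ctrl-exos, 2 members were called (Psmb1 and Psmb10), 5.41% against 0.821% of all genes.

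MCAO+AS-exos against MCAO gave the single call of Psmd14, 2.7% of members against 6.14% of all genes in either direction and 1.06% higher. Values were positive for 34 of 37 members, beside 4434 of all 10846 genes tested. The members' median was 0.40 beside -0.17 for all genes, or 0.16 beside -0.15 with length and GC trends removed. An unadjusted p below 0.05 was found for 12 members, all higher, beside 25.7% of all genes in either direction and 6.91% higher. For 6 members the groups did not overlap, against 4.29% of all genes higher without overlap. Without MCAO+AS-exos replicate 4, 8 members were called higher: Psma1, Psma5, Psmb2, Psmb7, Psmc1, Psmd4, Psmd6 and Psmd14. That was 21.6% of members, beside 18.7% of all genes in either direction and 3.89% higher. Psmc1, an ATPase, then differed by 1.32 (adjusted p = 0.00257). Its values were 243.6, 293.26 and 270.18 FPKM in replicates 1 to 3 and 97.59 FPKM in replicate 4, against 123.45, 131.75, 110.22 and 73.51 FPKM in MCAO. Replicate 4 lay within the MCAO range and the others far above it. These calls rest on the 3 closely correlated libraries. With those averaged and counted once beside replicate 4, limma called 0 members and 0 of all genes, and Psmd14 stood at 0.83 (adjusted p = 0.622). Chil3, which dominates the monocyte sum, was at 818 to 1442 FPKM in MCAO, below replicates 1 to 3 and above replicate 4, while the sum of the other monocyte genes was 954 to 1230 FPKM in MCAO and 681 to 1096 FPKM in MCAO+AS-exos. Their part in these values was not tested.

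For MCAO+AS-exos against MCAO+Ctrl-exos, limma called no member, against 0.286% of all genes, and 5 had an unadjusted p below 0.05, 4 higher and 1 lower, beside 7.62% and 12% of all genes. The fit without a variance trend called none as well. The median was 0.24 beside -0.08 for all genes. Values were positive for 15 of 17 cap genes (median 0.32) and 12 of 16 core genes (median 0.08), beside 4903 of all 10846 genes tested. Psmd6 and Psmd7, both of the lid, were higher with no overlap, 2 of 37 members, a share near the 5.19% of all genes. Psmd6 had 130.67, 142.45, 142.86 and 86.92 FPKM in MCAO+AS-exos and 83.15, 75.03, 59.75 and 52.03 FPKM in MCAO+Ctrl-exos, a difference of 0.88 ± 0.28 (adjusted p = 0.102). Every MCAO+AS-exos library was higher, replicate 4 only slightly. Leaving that library out, 3 members were called higher (Psmc1, Psmd6 and Psmd14), 8.11% against 12% of all genes in either direction and 3.52% higher. Comparisons that share MCAO or MCAO+AS-exos libraries are not independent of each other.

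**Figure D5:**
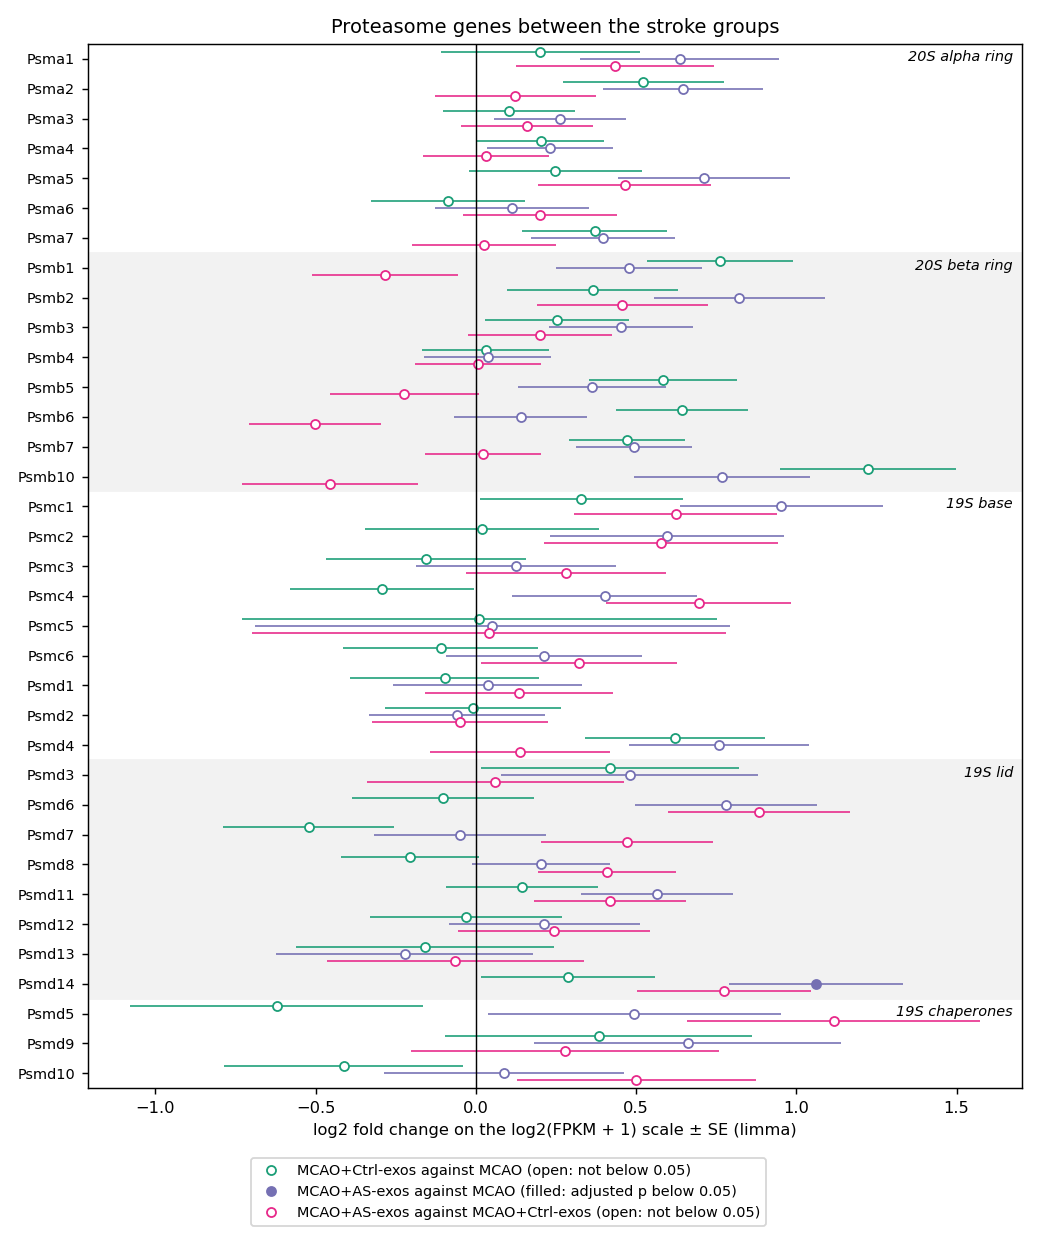
Log2 fold change with its SE for 35 members between the stroke groups, 4 libraries per group, ordered by role; the one filled point, Psmd14 in MCAO+AS-exos against MCAO (1.06), has an adjusted p below 0.05. Purple points lie mostly to the right of 0, and green points lie to the right for most core genes and on both sides for the cap.

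With replicate 4 of MCAO+AS-exos and replicate 1 of MCAO+Ctrl-exos both left out, a choice made after the values were seen, the comparisons with Sham called 17, 19 and 22 members (45.9%, 51.4% and 59.5%, beside 42%, 37.9% and 40.3% of all genes). The comparisons between stroke groups then called 3 (MCAO+Ctrl-exos against MCAO), 11 (MCAO+AS-exos against MCAO) and 5 (MCAO+AS-exos against MCAO+Ctrl-exos; 4 higher and Psmb6 lower by 0.70), beside 1.55%, 19.9% and 10% of all genes.

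Other genes of the pathway were described from lists of known roles. The remaining 19S subunits, the ubiquitin receptor Adrm1 and the small lid protein Sem1, rose in all 3 comparisons with Sham, Adrm1 by 1.22 ± 0.33 and Sem1 by 1.38 ± 0.24 in MCAO. Of 5 chaperones that assemble the 20S core, Psmg1 fell in MCAO (-0.92 ± 0.33, adjusted p = 0.0326) and Psmg4 rose in MCAO+Ctrl-exos (1.50 ± 0.31) and MCAO+AS-exos (0.93 ± 0.31), while Pomp, Psmg2 and Psmg3 passed no test. Among 5 activators and inhibitors of the core, Psme3, the nuclear activator, rose in all 3 comparisons (2.25 ± 0.47 in MCAO), Psme4 in MCAO alone by the test (1.19 ± 0.39), Psme1 in both exosome groups, Psme2 in MCAO+Ctrl-exos and Psmf1 in MCAO+AS-exos. Without 1 library the call in MCAO was lost in 5 of 8 fits for Psmg1 and 2 for Psme4. Adrm1 and Psme1 lost their MCAO+Ctrl-exos calls both after quantile normalization (0.78 and 0.19) and with equal totals (0.64 and 0.28), as Psmg4 did in MCAO+AS-exos (0.71 and 0.79). Psme2 in MCAO+Ctrl-exos and Psme1 in MCAO+AS-exos lost theirs after quantile normalization, and Psmf1 with equal totals.

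Among genes that encode ubiquitin, Ubb, a stress-inducible polyubiquitin gene, fell in every stroke group: by -1.38 ± 0.21, -1.43 ± 0.21 and -0.76 ± 0.21 in the order MCAO, MCAO+Ctrl-exos, MCAO+AS-exos. Rps27a, which encodes ubiquitin fused to a ribosomal protein, rose in MCAO+Ctrl-exos, a call lost after quantile normalization (0.54, adjusted p = 0.149). Of 9 genes for ubiquitin activation, shuttling and unfolding, 4 rose in MCAO: the activating enzyme Uba1 (1.91 ± 0.35), the unfoldase Vcp (1.72 ± 0.30), its cofactor Nploc4 (1.68 ± 0.39) and the shuttle Rad23b (1.60 ± 0.40). Uba1, Vcp and Nploc4 rose in the exosome groups too, Nploc4 in MCAO+AS-exos not with equal totals (0.88, adjusted p = 0.0982). Rad23b in MCAO+Ctrl-exos (11.12 to 23.17 FPKM) also stood above Sham (3.97 to 9 FPKM) with no overlap, while MCAO+AS-exos (3.65 to 16.92 FPKM) overlapped Sham. The shuttle Ubqln2 was lower in MCAO+AS-exos than in MCAO (-1.96 ± 0.57, adjusted p = 0.0483), a call lost in 7 of 8 fits without 1 library and after quantile normalization. None of 6 proteasome-bound deubiquitinases, ligases and adaptors passed the test in MCAO or MCAO+Ctrl-exos. In MCAO+AS-exos Uchl5 and Usp14 rose and Ube3a and Ecpas fell, each against Sham. Of these, Uchl5 and Usp14 were lost both after quantile normalization and with equal totals, and Ecpas after the former. Further calls of these pathway genes were lost in some or all of the 8 fits without 1 library: Nploc4 (8), Uchl5 (7), Psmf1, Usp14 and Ecpas (6 each), Psmg4 (5), and Psmb8 and Ube3a (4 each) in MCAO+AS-exos, and Psme1 (8), Adrm1 (6) and Rps27a (1) in MCAO+Ctrl-exos. With MCAO+AS-exos replicates 1 to 3 counted once, the calls of Psmg4, Psme1, Psmf1, Psmb8, Ddi2, Nploc4, Usp14, Uchl5, Ube3a and Ecpas against Sham and of Ddi2 and Ubqln2 against MCAO were lost, as were those of Adrm1 and Psme1 in MCAO+Ctrl-exos.

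Regulators of proteasome genes did not move together. Nfe2l1, which encodes NRF1, rose in MCAO (1.50 ± 0.41, adjusted p = 0.00628) and did not pass the test in the exosome groups (0.92 ± 0.41 and 0.62 ± 0.41). Nfe2l2, which encodes NRF2, passed no test. Ddi2, the protease that activates NRF1, was higher in MCAO+AS-exos than in MCAO (1.68 ± 0.40, adjusted p = 0.0306) and than in Sham (1.19 ± 0.40). The first of these calls was lost in 7 of 8 fits without 1 library, and the second after quantile normalization and in 4 of 8 such fits. Ddi2 was barely expressed, with means of 0.96 FPKM in Sham, 0.31 in MCAO, 1.13 in MCAO+Ctrl-exos and 3.25 in MCAO+AS-exos. It passed the filter on low values only through MCAO+AS-exos, the group where it was high, so no conclusion is drawn from its calls. Ngly1, which deglycosylates NRF1, fell in MCAO+Ctrl-exos (-1.75 ± 0.42). Akirin2, needed for import of proteasomes into the nucleus, fell in all 3 comparisons with Sham: -1.67 ± 0.46, -1.32 ± 0.46 and -3.21 ± 0.46. Its MCAO+Ctrl-exos call was lost with length and GC trends removed (-1.10, adjusted p = 0.0929) and in 4 of 8 fits without 1 library. In MCAO+AS-exos it held 7.6, 6.57, 3.49 and 39.43 FPKM, all below Sham (71.65 to 133.06 FPKM). Replicate 4 was above every MCAO library (21.85 to 35.87 FPKM), so the larger fall in MCAO+AS-exos rests on the 3 closely correlated libraries.

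Members varied between replicates by a median coefficient of variation of 25.1% in Sham, 22.1% in MCAO, 23.4% in MCAO+Ctrl-exos and 11.9% in MCAO+AS-exos, the group with the 3 closely correlated libraries. Once the group means were taken out, deviations of gene pairs over the 16 libraries correlated weakly: the median r was 0.228 within the 14 core genes, 0.206 within the 17 cap genes and 0.0357 between core and cap. The genes outside the set whose levels followed the median member most closely over 16 libraries were Lrrc25 (r = 0.903), Sdhb (0.900), Tmem14c (0.898), Sin3b (0.880) and 9530068E07Rik (0.871). These correlations mix group differences with replicate spread, come from shared libraries and are a description.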

How the data were processed

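Cells stained for CD45 and CD11b were profiled by RNA-seq in 16 libraries, 4 for each of 4 groups, which were taken from the sample titles. The submitters' processing notes name HISAT2, Bowtie2, RSEM 1.3.1 and the build GRCm39.p6, without roles. The deposited values were read as FPKM, since RSEM is named and library totals were unequal. They could also be TPM with genes left out. The 16 single-library tables held the same values as the joint table. The analysis computed log2(FPKM + 1), kept 10846 genes (1 FPKM or more in 4 or more libraries) and fitted all 16 libraries in limma 3.58.1 (R 4.3.3) with 4 group means, trended and robust empirical Bayes variances, and two-sided p-values adjusted by Benjamini-Hochberg over all genes tested, with a threshold of 0.05. The fit was tested on simulated data. Fold changes are on the log2(FPKM + 1) scale, which understates changes of low genes. Length scaling leaves levels of short and long genes comparable only approximately. Members, role lists and markers were chosen with earlier results of these data known. All members could be named. Values in every library were given for the catalytic subunits, the highest and lowest member of a role, and the 3 members with the smallest p per comparison and direction, and for further members chosen after their values were seen. Alternatives were another variance prior, quantile normalization, equal totals, other filters, a pseudocount of 0.1, a replicate block, 8-library fits, removal of length and GC trends (mgcv 1.9.3; GENCODE lengths for 10625 genes, 98% of those tested, and all 37 members), leaving out each library and, chosen after seeing the data, leaving out 2 libraries together and averaging 3 closely correlated libraries. Promoter sequences are from RefSeq on GRCm38.p6, another build than the authors', and were used for sequence alone. Some genes of the pathway lists are not reported here.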

Additional observations from a re-analysis of the deposited data

Results flagged for a closer look

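In 12 of 156 groups of 4 libraries, 1 library lay farther from the other 3 than Dixon's 95% limit. Chance gives about 1 in 20. Of these, 6 concerned MCAO+AS-exos replicate 4: Psma1 at 186.9 FPKM (403.45 to 460.32 in the others), Psmc1 at 97.59 (243.6 to 293.26), Psmc2 at 61.6 (149.08 to 172.59), Psmd7 at 82.79 (91 to 92.61), Psmd14 at 99.95 (186.32 to 196.13), and the median log2 level of the 17 cap genes at 6.46. The monocyte marker sum was also the lowest of the group in that library, through Chil3 (652 FPKM, against 2948 to 4235 in replicates 1 to 3). Without Chil3 the sum was 1072 FPKM there and 681 to 1096 FPKM in replicates 1 to 3. The part of these markers was not tested. Sham replicate 1 was low for Psmc5, at 1.12 FPKM (49.22 to 91.3 in the others), and for the cap median, at 5.50 on the log2 scale. In MCAO, replicate 2 was high for Psma1 (302.4 FPKM) and low for Psmd2 (57.02 FPKM), and replicate 1 was high for Psma8 (1.21 FPKM, against 0 to 0.03). In MCAO+AS-exos, replicate 1 was low for Psmd3 (28.98 FPKM, against 39.19 to 41.62).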

How the results depend on the processing

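The number of members called in MCAO against Sham stayed within 1.5 times its value in every setting tried. For MCAO+Ctrl-exos against Sham, 10 members were called without the variance trend and 10 with equal totals (9 higher, 1 lower), where the median fell to 0.31. Quantile normalization gave medians of 0.11, 0.23 and 0.45 against Sham, and 13 calls for MCAO+AS-exos. With length and GC trends removed the medians were 0.58 (MCAO) and 0.53 (MCAO+AS-exos) against Sham and 0.16 for MCAO+AS-exos against MCAO, with 0 calls there. The 8-library fit also gave 0 calls there. Equal totals turned the median of MCAO+Ctrl-exos against MCAO to -0.064. Psma3 reached a call opposite in sign to its main value in MCAO+Ctrl-exos with quantile normalization (-0.52) and in MCAO with length and GC removed (0.69). The cause of these shifts was not tested. Leaving out each library in turn gave 11 to 17 calls for MCAO+Ctrl-exos against Sham (11 without Sham replicate 1), 0 to 2 for MCAO+Ctrl-exos against MCAO with medians of 0.071 to 0.32, 0 to 8 for MCAO+AS-exos against MCAO and 0 to 3 for MCAO+AS-exos against MCAO+Ctrl-exos. Without MCAO+AS-exos replicate 4 and MCAO+Ctrl-exos replicate 1, the comparisons with Sham gave 17, 19 and 22 calls and the last 3 comparisons 3, 11 and 5. With MCAO+AS-exos replicates 1 to 3 counted once, MCAO+AS-exos had 11 calls against Sham and 0 against MCAO. With a replicate block the 6 comparisons gave 16, 14, 22, 0, 1 and 0 calls. Replicate numbers did not pair the libraries: same-numbered deviations correlated from -0.148 to 0.0923, and at most 4 of 8 libraries in a comparison were closest to their own number. Depth cannot be read from these values.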
